A study of Mus musculus with 12 samples.

Results

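Sertoli cell transcripts were followed through sorted mouse spermatogonia as 10 genes: Cst12, Cst9, Defb36, Clu, Cldn11, Slc38a5, Rhox5, Sox9, Wt1 and Aard. They are 10 of the 53715 genes in the deposited count table, all 10 were found by symbol, and all 10 were among the 19815 genes with enough counts to be tested. They were chosen on earlier results from the same libraries, in which Sertoli cell genes had lower counts in Tet1KO than in WT at 3 months. The genotype values below therefore describe the genes and carry no test. The samples were 12 libraries of 1000 cells each, collected by fluorescence-activated sorting from testes of a C57BL6/129 background and turned into cDNA by Smart-seq2, which copies whole transcripts from little RNA. They formed 4 groups of 3 libraries: Tet1KO at 3 months, WT at 3 months, Tet1KO at 11 months and WT at 11 months. TET1 oxidises 5-methylcytosine in DNA, and the labels give neither the exons that the Tet1KO allele lacks nor the number of animals, so a p-value covers no more than the spread among these libraries, which may be technical.

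Sertoli cells are the somatic nurse cells of the seminiferous tubule. Each spans the wall from the basement membrane to the lumen, surrounds the germ cells, joins its neighbours by the tight junctions of the blood-testis barrier, and secretes fluid, proteins and lactate. Spermatogonia lie between these cells and the basement membrane, and a sort for spermatogonia is meant to leave Sertoli cells behind. The sources used here do not give the surface markers or reporter of the sort.

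Total counts ran from 8325159 to 18223645 per library. The labelled cell type was well represented: the 10 spermatogonia and germ cell genes (led by Dazl, Stra8, Uchl1 and Ddx4) summed to between 2966 and 4262 CPM (counts relative to the library total, scaled by TMM), and none was at 0 in any library. Tet1 itself had 0 to 18 counts per library, and its level overlapped between Tet1KO and WT libraries at both ages, so it did not check the genotype labels. At 3 months, Tet1KO replicate 2 and WT replicate 1 stood apart, with counts for 30010 and 29420 genes, where none of the other 10 had more than 26995. Results that rest on them are given with and without them. For a gene without counts in a library, a level of up to 3 counts cannot be told from 0, which was 0.162 to 0.402 CPM. That limit and the binomial intervals below describe counting error alone, because reads without molecular identifiers are not independent molecules.

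Promoters were available for 6 of the 10 genes, and Wt1, also on chromosome 2, was not among them. That of Rhox5 was left out because its entry starts far upstream of the counted gene. Promoters are shown for 4 genes. Of these, Cst12, Cst9 and Defb36 lie on 1 chromosome and followed the list closely or, for Cst9, with a shift of its own. Slc38a5 followed the list least. The sequences are RefSeq's for GRCm38.p6, from 250 bases before to 50 bases after the annotated start, read 5′ to 3′ on the gene's strand. They lie at chr2:148789115-148789414, chr2:148834897-148835196, chr2:152604077-152604376 and chrX:8271131-8271430, all on the plus strand. The window of Slc38a5 lies almost wholly inside the counted gene, which begins at 8271133. Its annotated start is thus downstream of the first counted base, and the window is not the stretch before the counted gene. Capitals mark matches, on either strand, to 3 cores. The core bound by SOX factors was read as AACAAT or AACAAA. The core bound by GATA factors was read as AGATAA, with AGATAG beside it, and as TGATAA, with TGATAG beside it. The core bound by steroid receptors, such as the androgen receptor, was read as AGAACA.
Cst12: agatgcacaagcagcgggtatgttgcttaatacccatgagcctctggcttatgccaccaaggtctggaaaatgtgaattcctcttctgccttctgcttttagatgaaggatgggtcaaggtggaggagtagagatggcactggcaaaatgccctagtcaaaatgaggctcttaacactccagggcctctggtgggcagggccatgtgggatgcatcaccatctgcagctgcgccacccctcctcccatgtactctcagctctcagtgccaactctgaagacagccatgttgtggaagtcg
Cst9: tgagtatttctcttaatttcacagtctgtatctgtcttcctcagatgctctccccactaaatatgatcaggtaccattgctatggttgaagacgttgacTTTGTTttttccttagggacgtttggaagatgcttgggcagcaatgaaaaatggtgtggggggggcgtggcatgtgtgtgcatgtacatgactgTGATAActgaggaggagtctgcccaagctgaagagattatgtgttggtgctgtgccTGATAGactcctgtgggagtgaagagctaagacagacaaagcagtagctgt
Defb36: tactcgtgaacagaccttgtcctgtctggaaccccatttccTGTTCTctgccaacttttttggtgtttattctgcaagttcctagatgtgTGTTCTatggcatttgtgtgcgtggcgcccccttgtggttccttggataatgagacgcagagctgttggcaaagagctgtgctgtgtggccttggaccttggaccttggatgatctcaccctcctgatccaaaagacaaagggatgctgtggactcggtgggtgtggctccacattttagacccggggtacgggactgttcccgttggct
Slc38a5: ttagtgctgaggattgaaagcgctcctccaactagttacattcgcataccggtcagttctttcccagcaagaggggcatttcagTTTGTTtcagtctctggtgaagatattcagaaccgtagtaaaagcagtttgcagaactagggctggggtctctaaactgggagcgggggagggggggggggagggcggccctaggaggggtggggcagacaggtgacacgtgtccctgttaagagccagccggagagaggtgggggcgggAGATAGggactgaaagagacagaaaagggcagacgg

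The 4 windows share little by these letters. Cst9 held 1 SOX match, at base -151 from the start, and GATA matches at -57 and -1. Defb36 held the steroid receptor core at -209 and -160 and neither of the other cores. Slc38a5 held a SOX match at -166 and a GATA match at 14, and Cst12 held none of these letters. With Cldn11 searched as well, the SOX core was in 3 of 5 promoters, the GATA core in 2, the steroid receptor core in 1 and AAGGTCA, the NR5A core, in 0. Over all 32851 promoters of the same length, 27.66% held the SOX core, 29.76% the GATA core, 18.97% the steroid receptor core and 4.718% the NR5A core.

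Secreted proteins gave the highest levels. Per exon length (RPKM, CPM per kilobase of exon, mean over 12 libraries) Cst9 stood at 57.3, Cst12 at 39.1, Defb36 at 16.1, Clu at 7.80 and Aard at 6.73. Rhox5 (2.49), Slc38a5 (2.31), Cldn11 (1.28), Wt1 (0.610) and Sox9 (0.219) followed. The 10 genes together took 0.00130% to 0.0456% of a library's counts, with both ends in WT libraries: replicate 3 at 11 months and replicate 1 at 3 months. Summed over the 10 genes, the level was 45.1, 116 and 44.3 CPM in Tet1KO libraries at 3 months, against 469.7, 111 and 211 CPM in WT libraries. At 11 months the sums were 47.7, 37.7 and 29.9 CPM in Tet1KO libraries, against 138, 207 and 13.6 CPM in WT libraries. The genotypes overlapped at both ages, at 3 months through Tet1KO replicate 2 and WT replicate 2 and at 11 months through WT replicate 3, the lowest of all 12 libraries. In RNA of 1000 pooled cells, fewer cells of a type and less RNA per cell cannot be told apart.

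Cst12 (ENSMUSG00000027443.10, chromosome 2, 148789361 to 148793546, plus strand, mm10) encodes a secreted relative of the cystatins, inhibitors of cysteine proteases. At 3 months it was at 8.78, 21.8 and 6.35 CPM in Tet1KO libraries, against 102, 24.6 and 46.8 CPM in WT libraries. Every Tet1KO library lay below every WT library, and the fitted log2 fold change was -2.22 ± 0.93 (SE). At 11 months Cst12 was at 10.5, 8.94 and 8.44 CPM in Tet1KO libraries, against 36.0, 32.0 and 1.21 CPM in WT libraries. There the groups overlapped, since WT replicate 3 was lower than all Tet1KO libraries, and the log2 fold change was -1.31 ± 0.91.

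Cst9 (ENSMUSG00000027445.3, chromosome 2, 148835147 to 148838738, plus strand), known as testatin and switched on in the Sertoli cell lineage of the developing mouse testis, begins 45.8 kb from Cst12. It was at 3.51, 22.1 and 15.1 CPM in Tet1KO libraries at 3 months, against 163, 9.34 and 101 CPM in WT libraries. Its levels at 11 months were 15.3, 6.93 and 4.18 CPM in Tet1KO libraries, against 64.4, 66.8 and 0.767 CPM in WT libraries. At each age 2 WT libraries were far above all others and the third lay among or below the Tet1KO libraries. The log2 fold changes, -2.73 ± 1.3 at 3 months and -2.32 ± 1.29 at 11 months, had the widest errors of the 10 genes.

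Defb36 (ENSMUSG00000044863.7, chromosome 2, 152604327 to 152612729, plus strand) is a beta-defensin gene, of a family of small secreted antimicrobial peptides. It was at 4.03, 6.63 and 3.08 CPM in Tet1KO libraries at 3 months, against 31, 7.49 and 9.93 CPM in WT libraries, and the groups did not overlap. The levels of Defb36 at 11 months were 4.43, 2.01 and 2.67 CPM in Tet1KO libraries, against 8.14, 10.3 and 0.658 CPM in WT libraries, which overlapped through WT replicate 3. The log2 fold changes were -1.81 ± 0.80 and -1.07 ± 0.80. Clu (ENSMUSG00000022037.15, chromosome 14, 65968483 to 65981547, plus strand) encodes clusterin, a secreted chaperone and a major Sertoli cell product. It was at 7.54, 33.4 and 7.40 CPM in Tet1KO libraries at 3 months, against 105, 27.5 and 28.2 CPM in WT libraries. For Clu the levels at 11 months were 8.99, 11.0 and 5.93 CPM in Tet1KO libraries, against 11.8, 71.0 and 3.62 CPM in WT libraries. Both ages overlapped, and in each a single WT library was high, replicate 1 at 3 months and replicate 2 at 11 months. The log2 fold changes were -1.72 ± 1.01 and -1.74 ± 1.02.

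Cldn11 (ENSMUSG00000037625.7, chromosome 3, 31149920 to 31164324, plus strand) encodes a claudin that forms the tight junctions between Sertoli cells. It was at 0.827, 1.46 and 0.288 CPM in Tet1KO libraries at 3 months, against 9.45, 2.87 and 3.22 CPM in WT libraries. No Tet1KO library reached the lowest WT library, and the log2 fold change was -2.56 ± 1.17. Among libraries of 11 months, Cldn11 was at 1.48, 0.301 and 0 CPM in Tet1KO libraries, against 1.51, 6.83 and 0.548 CPM in WT libraries, which overlapped, with a log2 fold change of -2.26 ± 1.17. The library at 0 allows up to 0.251 CPM.

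Slc38a5 (ENSMUSG00000031170.14, chromosome X, 8271133 to 8280179, plus strand) encodes a sodium-coupled transporter of neutral amino acids such as glutamine. Among the 10 genes it took a course of its own. At 3 months it was at 8.58, 14.5 and 5.77 CPM in Tet1KO libraries, against 10.2, 10.4 and 1.61 CPM in WT libraries. The groups overlapped and the log2 fold change, 0.38 ± 0.63, was the only one of the 10 above 0. It was -0.053 without Tet1KO replicate 2, which stood apart, and -0.076 without WT replicate 3, so its side of 0 rests on those libraries. At 11 months it was at 0.677, 0.502 and 0.501 CPM in Tet1KO libraries, against 5.43, 2.45 and 1.64 CPM in WT libraries. All Tet1KO libraries then lay below all WT libraries, with a log2 fold change of -2.48 ± 0.71.

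Rhox5 (ENSMUSG00000095180.8, chromosome X, 37804842 to 37808876, plus strand) is a homeobox gene that responds to androgen in Sertoli cells. It was at 2.07, 0.539 and 0.769 CPM in Tet1KO libraries at 3 months, against 8.54, 3.08 and 1.61 CPM in WT libraries. Rhox5 at 11 months was at 0.123, 1.10 and 0.501 CPM in Tet1KO libraries, against 1.26, 2.28 and 0.658 CPM in WT libraries. Each age overlapped by 1 pair of libraries, and the log2 fold changes were -2.0 ± 0.86 and -1.33 ± 0.88. Wt1 (ENSMUSG00000016458.14, chromosome 2, 105126529 to 105173616, plus strand) and Sox9 (ENSMUSG00000000567.5, chromosome 11, 112782224 to 112787760, plus strand) encode transcription factors needed for Sertoli cell identity. Wt1 was at 3.82, 3.40 and 2.12 CPM in Tet1KO libraries at 3 months, against 13.3, 6.36 and 1.21 CPM in WT libraries. At 11 months Wt1 was at 3.63, 2.31 and 1.67 CPM in Tet1KO libraries, against 1.45, 4.84 and 1.21 CPM in WT libraries. Its groups overlapped at both ages, with log2 fold changes of -1.17 ± 0.74 and 0.01 ± 0.75, the second being the only one above 0 at 11 months. With each library left out in turn, the second lay between -0.35 and 0.93. It was below 0 without Tet1KO replicate 1, WT replicate 1 or WT replicate 3 (-0.35 to -0.27).

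Sox9 was the scarcest of the 10 genes, with 1 to 51 counts per library. It was at 0.723, 0.755 and 0.192 CPM in Tet1KO libraries at 3 months, against 3.86, 1.03 and 0.134 CPM in WT libraries. At 11 months it was at 0.308, 0.301 and 1.09 CPM in Tet1KO libraries, against 0.505, 1.87 and 0.110 CPM in WT libraries. The groups overlapped at both ages and several values lay near the limit of 3 counts, with log2 fold changes of -1.58 ± 1.14 and -0.58 ± 1.13. Aard (ENSMUSG00000068522.4, chromosome 15, 52040107 to 52045722, plus strand), which encodes a protein rich in alanine and arginine, had the smallest spread. It was at 5.17, 11.8 and 3.27 CPM in Tet1KO libraries at 3 months, against 23.4, 18.1 and 16.9 CPM in WT libraries, with no overlap and a log2 fold change of -1.52 ± 0.49. At 11 months it was at 2.28, 4.22 and 4.93 CPM in Tet1KO libraries, against 7.07, 8.58 and 3.18 CPM in WT libraries, which overlapped, with a log2 fold change of -0.73 ± 0.49.

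**Figure D1:**
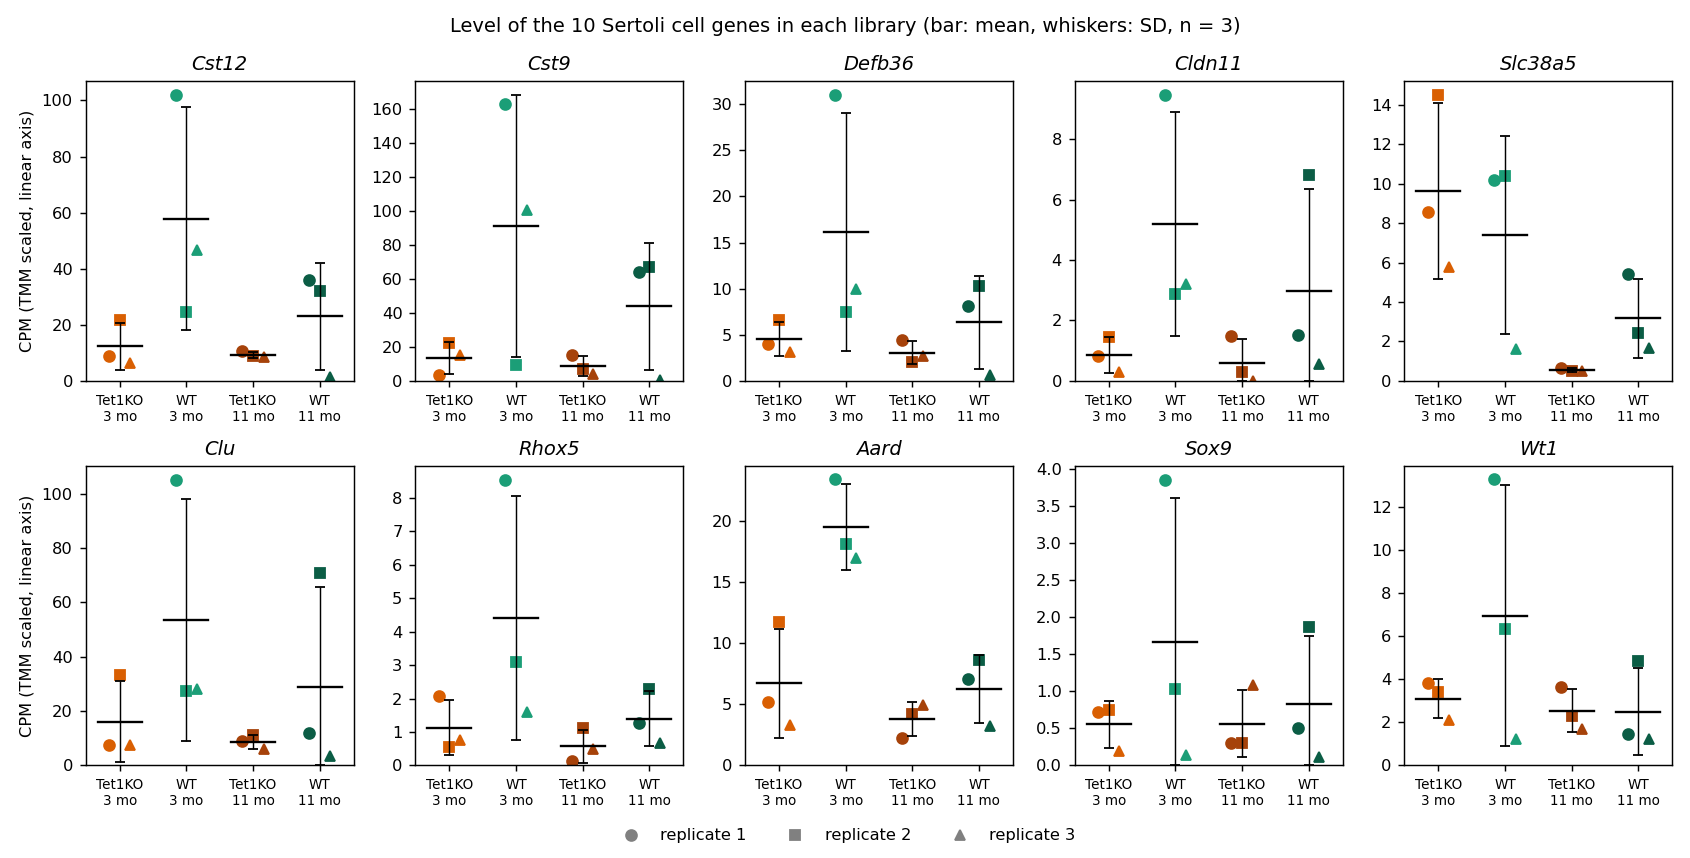
Level of each of the 10 genes in CPM (linear axis from 0) in each library, with Tet1KO left of WT at each age; symbols are replicates, bars the group mean and whiskers the SD (n = 3), drawn no lower than 0. WT replicate 1 at 3 months is the highest library for every gene except Slc38a5, whose Tet1KO libraries at 11 months all lie at or below 0.677 CPM.

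At 3 months the fitted fold change was below 0 for 9 of the 10 genes, against 53.2% of all tested genes. For 4 of them (Cst12, Defb36, Cldn11 and Aard) every Tet1KO library lay below every WT library, which held for 3.62% of tested genes. The genes were taken up for this contrast, so nothing is read from these counts. Their median log2 fold change was -1.77, against -0.02 over all tested genes. No single gene was called: edgeR's quasi-likelihood test with Benjamini-Hochberg adjustment at 0.05 called 0 of 19815 genes, with 225 at an unadjusted p under 0.05, DESeq2 called 2 and limma-voom 0, none of them among the 10. Without WT replicate 1 the median was -1.0, with 9 of 10 genes lower, and without Tet1KO replicate 2 it was -2.20, with all 10 lower. Without both it was -1.59, with 9 of 10 lower. The log2 fold changes of Defb36, Rhox5, Sox9 and Wt1 were then -1.29, -0.73, -0.38 and -0.37, all nearer to 0 than with all libraries. That of Slc38a5 was 0.25, that of Aard was -2.05 and those of Cst12, Cst9, Clu and Cldn11 lay between -2.56 and -1.90.

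At 11 months 9 of the 10 were again lower in Tet1KO libraries, against 46.2% of all tested genes, and 1, Slc38a5, did not overlap, against 2.54%. The median was -1.32, against 0.02 over all tested genes. It moved to -0.65 without WT replicate 2, with 7 of 10 genes lower, Clu and Sox9 at 0.15 and 0.79 and Wt1 still above 0. Without WT replicate 3 the median was -1.77, with 10 of 10 lower. At this age the replicate numbers were taken from the data to pair the libraries, while the values above come from the unpaired fit. With the replicate number as a block the median was -0.76. Here too edgeR called 0 genes, with 326 at an unadjusted p under 0.05, DESeq2 called 3 and limma-voom 0, none of them among the 10. Averaged over both ages all 10 genes were lower (48.8% of all tested genes were), with log2 fold changes between -2.52 for Cst9 and -0.58 for Wt1 and a median of -1.55.

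**Figure D2:**
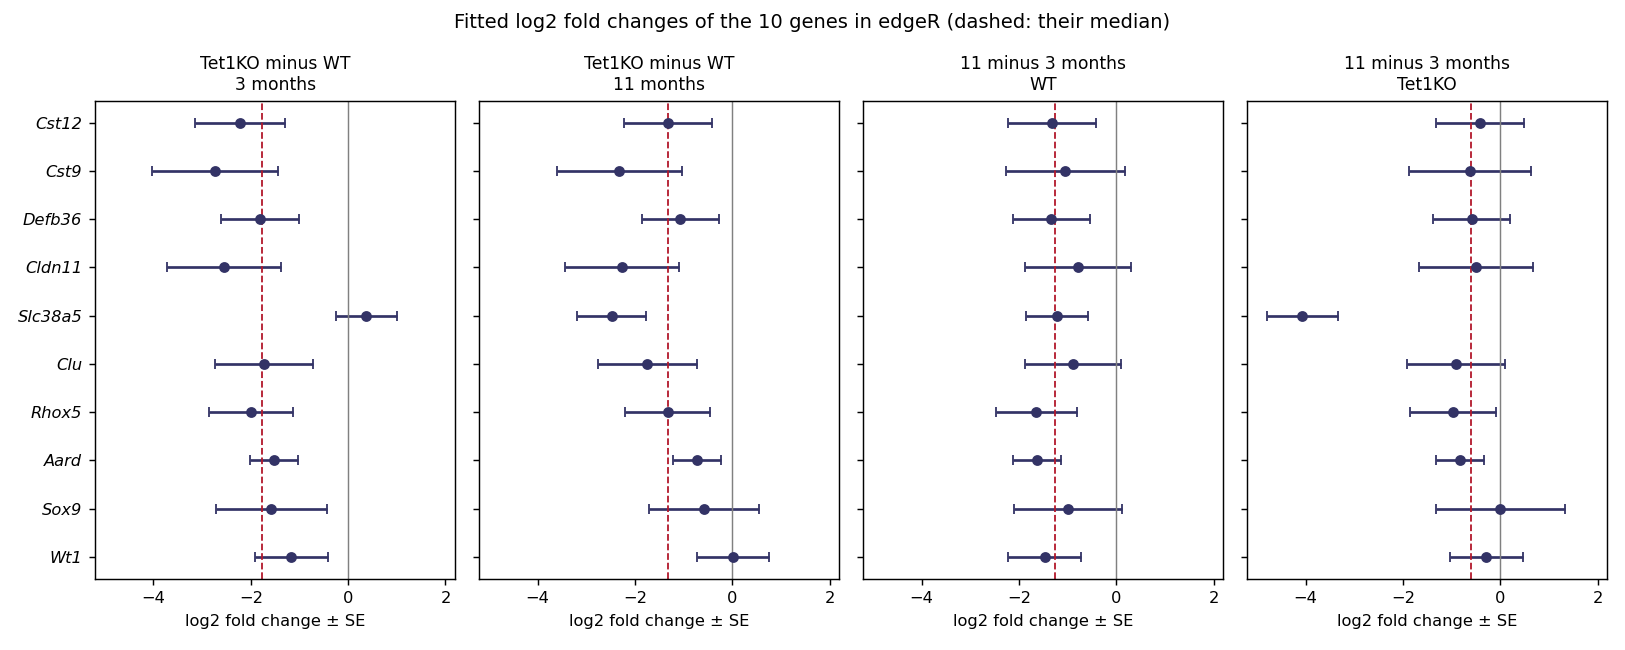
Fitted log2 fold change ± SE of each gene in 4 contrasts of the edgeR model, with the solid line at 0 and the dashed line at the median of the 10 genes. The genotype medians are -1.77 at 3 months and -1.32 at 11 months, and Slc38a5 lies on the other side of 0 at 3 months and far below the rest between the Tet1KO ages.

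Age was compared within each genotype. These contrasts use the libraries of 3 months that also entered the genotype contrast, so they are not independent of the choice of genes. In WT libraries all 10 genes were lower at 11 than at 3 months, against 56.4% of all tested genes, with log2 fold changes between -0.80 for Cldn11 and -1.64 for Rhox5 and a median of -1.27 (-0.06 over all tested genes). Aard alone did not overlap, against 6.12% of tested genes: it averaged 6.27 ± 2.78 CPM at 11 months and 19.5 ± 3.49 CPM at 3 months (SD, n = 3 each). Its log2 fold change was -1.62 ± 0.49 (SE), lower in 3 of 3 libraries, with an adjusted p of 0.774 in edgeR. Without WT replicate 1 of 3 months, 8 of 10 genes were lower and the median was -0.52. Without WT replicate 2 of 11 months the median was -2.04, and without WT replicate 3 of 11 months it was -0.75. No gene was called by edgeR, DESeq2 or limma-voom, with 1124 genes at an unadjusted p under 0.05 in edgeR.

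In Tet1KO libraries the age contrast set Slc38a5 beside 9 genes with smaller values. The log2 fold changes of those 9 lay between -0.98 for Rhox5 and 0.00 for Sox9, each with an SE of at least 0.49, and the median of all 10 was -0.61 (-0.01 over all tested genes). By sign 9 of 10 were lower at 11 months, against 52% of all tested genes, and without Tet1KO replicate 2 of 3 months 6 of 10 were lower, with a median of -0.11. Slc38a5 averaged 0.560 ± 0.101 CPM at 11 months and 9.62 ± 4.46 CPM at 3 months (SD, n = 3 each), and all libraries of 11 months lay below all of 3 months, as for 3.09% of tested genes. Its log2 fold change was -4.07 ± 0.73 (SE), the smallest unadjusted p of all 19815 genes in this contrast (0.000146), with an adjusted p of 1.0 in edgeR. DESeq2 called it, with an adjusted p of 0.00035, as 1 of 7 genes, and in the other alternatives, including each library left out in turn, the adjusted p lay between 0.233 and 1.0. edgeR and limma-voom called 0 genes, with 462 at an unadjusted p under 0.05 in edgeR.

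The difference between the genotype contrasts of the 2 ages was fitted as an interaction. For Slc38a5 it was -2.85 ± 0.94 on the log2 scale (edgeR, adjusted p of 1.0). For the other 9 genes it lay between -0.02 for Clu and 1.18 for Wt1, each with an SE of at least 0.69. None of the 19815 genes was called by edgeR or DESeq2, with 311 at an unadjusted p under 0.05 in edgeR.

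The 10 genes varied together from library to library. Over the 45 pairs of genes, Pearson's r of log2 CPM across the 12 libraries lay between 0.287 and 0.971, with a median of 0.631, and the median was 0.579 on deviations from the group means. These values describe points that share libraries and depth. Set against the mean of the other 9, Defb36 (r = 0.951), Clu (0.926) and Cst12 (0.897) followed most closely, then Aard (0.832), Cldn11 (0.823), Cst9 (0.754), Rhox5 (0.722), Wt1 (0.679) and Sox9 (0.678). Slc38a5 followed least, at 0.506. Over the 10 libraries without the 2 that stood apart, Defb36 was at 0.921 and Clu at 0.886, while Sox9 was at 0.439, Wt1 at 0.423 and Slc38a5 at 0.378. Rhox5, the third gene of a transcription factor among the 10, was at 0.646 there.

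Among the 19805 other tested genes, 8 correlated with the mean of the 10 at r of at least 0.9 and 59 at 0.8 or more. The 10 most alike were Ldhb (0.962), Mro (0.950), Defb19 (0.935), Gm14569 (0.933), Rhox8 (0.927), Reep1 (0.915), Amhr2 (0.912), 1700018G05Rik (0.904), Gm45667 (0.895) and Eppin (0.892). Ldhb encodes the B subunit of lactate dehydrogenase, Amhr2 the receptor of anti-Müllerian hormone, and Eppin a protease inhibitor of the male tract. Mro, Rhox8 and Amhr2 were on a list of 30 other Sertoli cell genes. Gm45667 overlaps Cavin3 on the opposite strand, and counts made without strand cannot tell them apart. Ldhb was at 16, 19.9 and 10.6 CPM in Tet1KO libraries at 3 months, against 54.9, 23.2 and 21.2 CPM in WT libraries. Defb19, whose start lies 28.2 kb from that of Defb36, was at 14.6, 21.1 and 9.81 CPM in Tet1KO libraries, against 122.5, 37.8 and 31 CPM in WT libraries. Neither overlapped between genotypes at 3 months, where 3.62% of tested genes lay lower in Tet1KO libraries without overlap. Both were lowest at 11 months in Tet1KO replicate 3 and WT replicate 3. They were picked by likeness to genes taken up for the 3-month contrast, so nothing is read from these patterns.

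**Figure D3:**
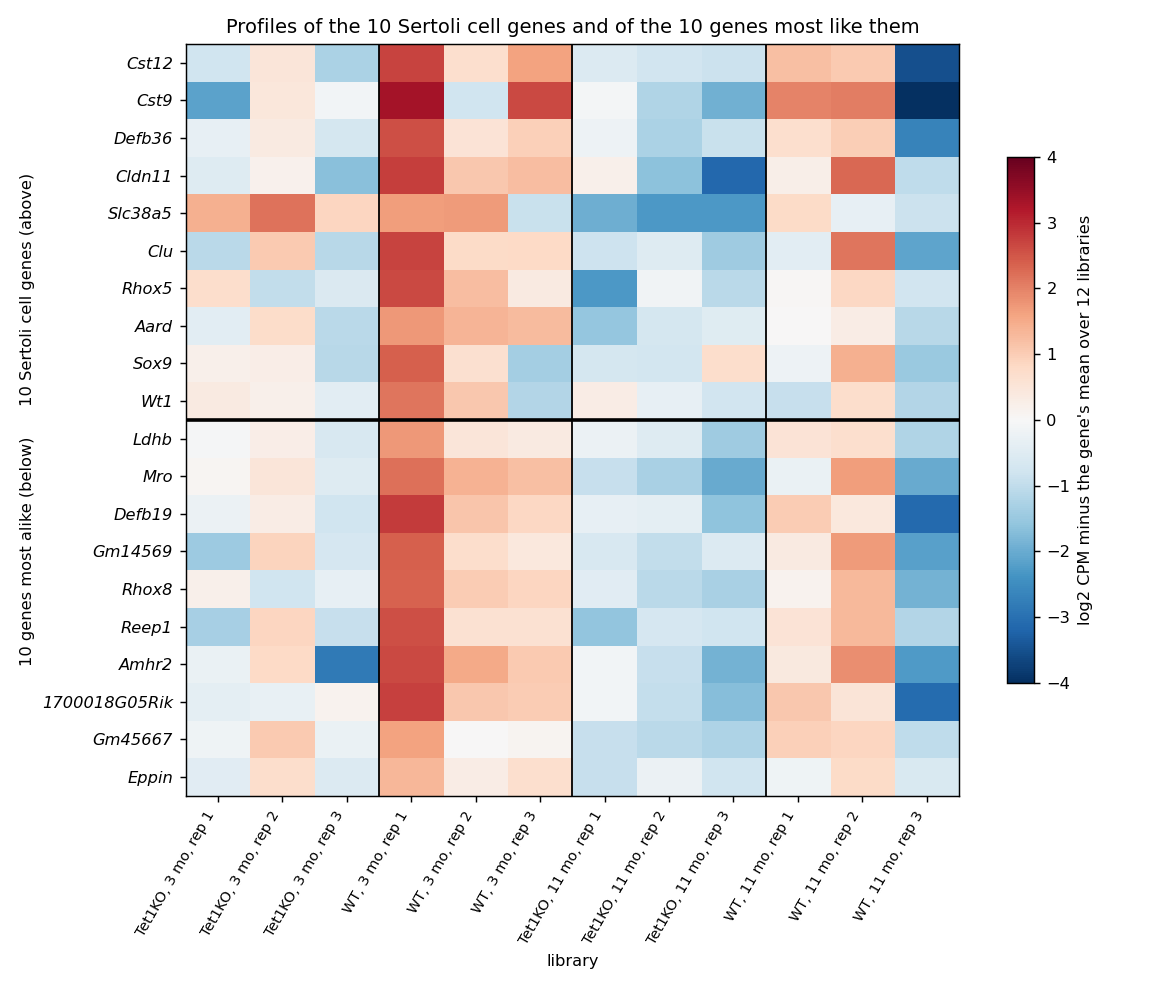
Centred log2 CPM (each gene's value minus its mean over the 12 libraries) of the 10 Sertoli cell genes above the thick line and of the 10 genes most like them below it, by library, with Tet1KO left of WT at each age. The column of WT replicate 1 at 3 months is the darkest red for all the genes but Slc38a5, and that of WT replicate 3 at 11 months is blue throughout.

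The neighbours on the chromosomes did not all share this pattern. In the cystatin cluster, Cst3, which encodes the widely expressed cystatin C, averaged 695 ± 119 CPM in Tet1KO and 796 ± 154 CPM in WT libraries at 3 months (SD, n = 3 each), with r = -0.193 to the mean of the 10 genes. Cst8, which begins 9424 bases from Cst12, averaged 24.4 ± 16.9 CPM in Tet1KO and 25.5 ± 30.01 CPM in WT libraries, with r = 0.463. Cst13 and Cstl1 stood at r = 0.337 and 0.233, and 8030411F24Rik, on the other side of Cst12, at 0.791. Of the defensin genes beside Defb36, Defb19 had r = 0.935 and Defb45 0.829 to the mean of the 10 genes, while Defb21 and Defb25 had too few counts to be tested. Rhox8, which starts 69.9 kb from Rhox5 on the X chromosome, averaged 1.02 ± 0.403 CPM in Tet1KO and 4.06 ± 2.64 CPM in WT libraries at 3 months, with r = 0.927.

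Cst9 and Cst12 differed in balance between libraries. Cst9 made up 28.6%, 50.3% and 70.4% of the counts of the pair in Tet1KO libraries at 3 months, against 61.5%, 27.5% and 68.3% in WT libraries. At 11 months it made up 59.2%, 43.7% and 33.1% in Tet1KO libraries, against 64.2%, 67.6% and 38.9% in WT libraries. The genotypes overlapped at both ages. The lowest shares belonged to Tet1KO replicate 1 (95% exact binomial interval 20.7% to 37.6%) and WT replicate 2 (22.8% to 32.6%) of 3 months, the only libraries whose code begins with DY rather than AK. Tet1KO replicate 3 of 11 months, with an AK code, was at 33.1% (25.7% to 41.2%). The sources used here do not say what the code stands for, and its part in the balance was not tested.

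**Figure D4:**
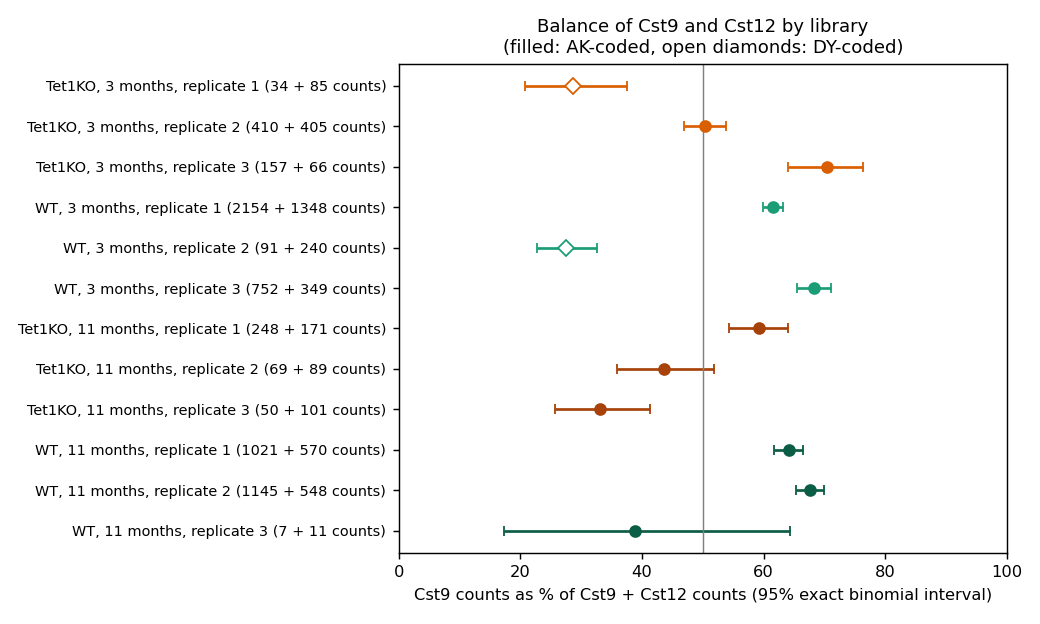
Cst9 counts as a percentage of Cst9 plus Cst12 counts in each library, with the 95% exact binomial interval (counting error only) and the counts in the label; open diamonds are the 2 libraries with a DY code. The 2 diamonds lie at 28.6% and 27.5%, and libraries of 1 group differ by more than their intervals.

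The list of 30 other Sertoli cell genes held 23 tested genes. At 3 months 20 of the 23 were lower in Tet1KO libraries, with a median log2 fold change of -0.67, and at 11 months 19 of 23, with a median of -0.96, and none was called. The mean of its centred log2 CPM correlated with that of the 10 genes at r = 0.972 over the 12 libraries and 0.953 without the 2 that stood apart. By summed level the list was nearly flat, at 707 to 877 CPM in Tet1KO and 757 to 921 CPM in WT libraries at 3 months, with Ctsl, Ctnnb1 and Tjp1 making up 89.8% of it. Ctnnb1 (β-catenin) had a log2 fold change of 0.05 ± 0.17 at 3 months, Ctsl (cathepsin L) of -0.11 ± 0.17 and Tjp1 (the junction scaffold ZO-1) of 0.14 ± 0.22, and all 3 are also made by many other cell types. Tsx, an X-linked testis gene, averaged 2.84 ± 1.16 CPM in Tet1KO and 15.2 ± 8.94 CPM in WT libraries, a log2 fold change of -2.43 ± 0.76 that was not past the threshold in edgeR (adjusted p of 1.0).

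Some of the 30 other Sertoli cell genes, picked here after their values were seen, had few or no counts. Others of that list had more, such as Tsx above. Amhr2 averaged 1.47 ± 1.44 CPM in Tet1KO and 6.61 ± 4.02 CPM in WT libraries at 3 months. Fshr, the receptor of follicle-stimulating hormone, had no count in 7 of 12 libraries and at most 21. Gdnf, a growth factor for spermatogonial stem cells, had none in 8 and at most 13. Amh had none in 2 libraries and at most 17. The 12 junction genes of the blood-testis barrier, Cldn11's setting, showed no common shift: at 3 months 7 were lower and 5 higher in Tet1KO libraries, with a median of -0.07, and at 11 months 5 were lower and 7 higher, with a median of 0.04. In that list Gja1, the gap junction gene connexin 43, averaged 1.22 ± 1.6 CPM in Tet1KO and 6.90 ± 6.07 CPM in WT libraries at 3 months, a log2 fold change of -2.43 ± 1.06, not past the threshold (edgeR, adjusted p of 1.0). Ocln, which encodes the tight junction protein occludin, lay on the other side. It averaged 14.2 ± 0.237 CPM in Tet1KO and 9.42 ± 1.27 CPM in WT libraries at 3 months, without overlap, a log2 fold change of 0.60 ± 0.24 (edgeR, adjusted p of 1.0). At 11 months, where the groups overlapped, it was 0.56 ± 0.24 (edgeR, adjusted p of 1.0). Gja1 and Ocln were picked after their values were seen. The share of tested genes with every Tet1KO library above every WT library was not counted. Nothing is therefore read from the lack of overlap of Ocln at 3 months. The more abundant Jam3 had 0.09 ± 0.14 and Cgn 0.00 ± 0.28 at 3 months. The list stood at r = 0.446 to the 10 genes, or 0.189 without the 2 libraries that stood apart.

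Markers of other cells were present too. The 8 peritubular myoid genes, among them Acta2 and Myl9, summed to 83.6 to 409 CPM in Tet1KO and 109 to 389 CPM in WT libraries at 3 months. At 11 months they summed to 28.6 to 65.4 CPM in Tet1KO and 73.5 to 260.2 CPM in WT libraries. At 11 months 7 of the 8 were lower in Tet1KO libraries, with a median of -1.97 and none called by edgeR. DESeq2 called Tpm2 of the myoid list at that age. Between the Tet1KO ages all 8 were lower at 11 months, with a median of -2.65. The 7 genes that DESeq2 called between those ages included Myl9 and Tpm2 of the myoid list, beside Slc38a5. The mean of the myoid genes correlated with that of the 10 Sertoli cell genes at r = 0.705, or 0.604 without the 2 libraries that stood apart. At 11 months and between the Tet1KO ages, most myoid and most Sertoli cell genes thus had lower values together, and at 3 months 6 of the 8 myoid genes were higher in Tet1KO libraries, with a median of 0.24. The interaction median of the 8 myoid genes was -2.27, with all 8 below 0. Slc38a5 lay on the same side of 0 as the myoid medians, at 0.38 at 3 months and -2.48 at 11 months. It was at -4.07 between the Tet1KO ages and at -2.85 for the interaction. Its value at 3 months changed sign with single libraries left out, as given above. Whether Slc38a5 went with the myoid genes was not tested. The 8 spermatid genes, none at 0 in any library, summed to 633 to 1298 CPM in Tet1KO and 475 to 2742 CPM in WT libraries at 3 months, with r = 0.581, or 0.189 without those libraries. All 8 were lower in Tet1KO libraries at 3 months, as most Sertoli cell genes were, with a median of -0.52, and all 8 were higher at 11 months, with a median of 0.22, none called by edgeR.

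The 11 leukocyte genes summed to 255 to 569 CPM in Tet1KO and 338 to 567 CPM in WT libraries at 3 months. At 11 months they summed to 390.1 to 804 CPM in Tet1KO and 64.6 to 863 CPM in WT libraries. Over all libraries they stood at r = -0.349 to the Sertoli cell genes, or -0.605 without the 2 libraries. At 3 months 10 of the 11 were lower in Tet1KO libraries, on the side of the Sertoli cell genes, with a median of -0.38, and at 11 months all 11 were higher, with a median of 0.74, none called at either age. WT replicate 2 at 11 months, with the highest Sertoli cell sum of that age, had the leukocyte sum of 64.6 CPM. The leukocyte mean of centred log2 CPM was -2.70 there, against -0.54 to 0.95 in the other libraries. The correlation was not computed without that library, so it may rest on it. The 6 stroma genes stood at r = 0.299 and the 5 endothelial genes at 0.377, or at 0.113 and 0.154 without the 2 libraries. Of 8 Leydig cell genes 1 was tested, 3 to 6 were at 0 in each library, and their sum reached 13.9 CPM. The spermatogonia list stood at r = -0.111, or -0.011 without the 2 libraries. The part of these cell types in the Sertoli cell values was not tested.

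**Figure D5:**
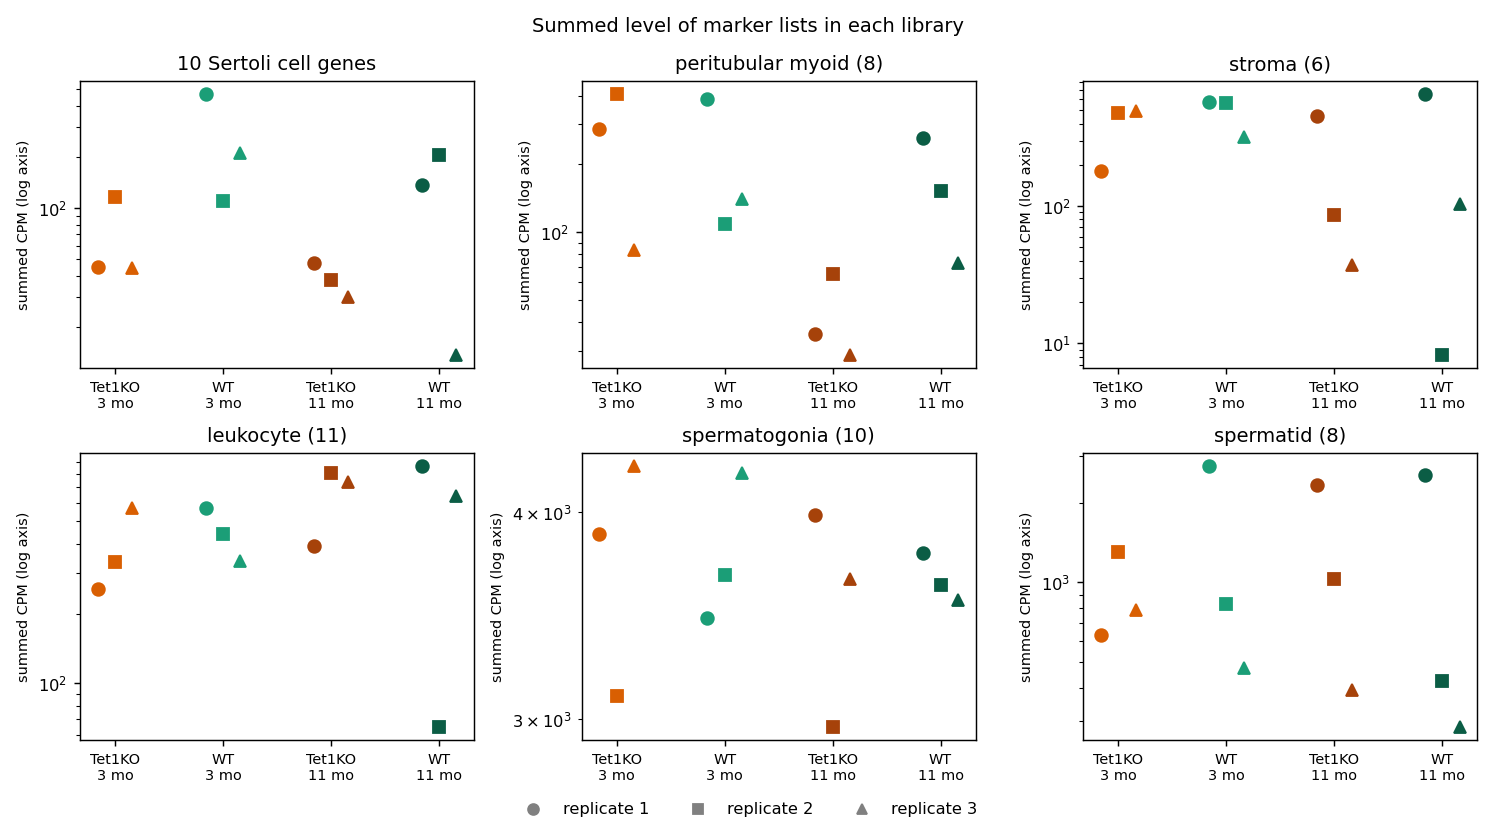
Summed CPM (log axes, each with its own range) of the 10 Sertoli cell genes and of 5 marker lists in each library, with the number of genes in brackets and Tet1KO left of WT at each age. The Sertoli cell sums run from 13.6 to 469.7 CPM while the spermatogonia sums stay between 2966 and 4262 CPM.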

How the data were processed

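The deposited table holds the authors' raw counts of 53715 genes in 12 libraries. They ran featureCounts 1.6.2 with the GENCODE vM17 genes, per the file headers, on read pairs of mapping quality 30 or more. Strand was ignored, and pairs that hit several places or genes were counted at each. HISAT2, SAMtools and the build mm10 are named in the submitters' processing notes. Exon lengths come from the same table. Such counting can assign reads of near-identical copies to several genes. Of the 31-base words of each gene's transcripts, none was shared with another gene for 7 of the 10 genes, and at most 1.12% (Sox9) for the other 3. Defb36 overlaps the pseudogene Gm14163, but no exons overlap.

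The 10 genes and all marker lists were chosen with earlier results of these data known. Symbols came from GENCODE vM21, which named 53620 genes. Counts were analysed with edgeR 4.0.16 in R 4.3.3: filterByExpr left 19815 genes, libraries were scaled with TMM, and all 12 libraries entered a single robust quasi-likelihood model with 1 mean per group, two-sided, adjusted over all tested genes at 0.05. SEs were derived from the F statistic. CPM used TMM-scaled totals, RPKM also the exon length, and correlations log2 CPM with a prior count of 2. The procedure was run on simulated counts in which only the more abundant genes were changed. That run does not cover scarce genes such as Sox9, Cldn11 and Rhox5. No pair of replicates looked like 1 library deposited again: the lowest chi-square divided by its degrees of freedom was 10.9.

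Whether the replicate numbers pair libraries was checked by the correlation of same-numbered Tet1KO and WT libraries' deviations from their group means. At 11 months these were 0.37, 0.17 and 0.33, and the numbers were taken to pair the libraries from the data, not from the labels. At 3 months they were -0.59, -0.18 and 0.30, and they did not. Named genes were the 10 genes, Tet1, the first 4 by RPKM of a list as examples, and the 10 most alike genes. Rhox8 and Amhr2 fall under the last group. Fshr, Gdnf, Amh, Gja1, Ocln, Tpm2 and the chromosomal neighbours were chosen after their values were seen. Alternatives were other scaling and filters, DESeq2 1.42.0, limma 3.58.1 voom with quality weights, only the compared groups, the replicate block, each library left out, and the 2 libraries that stood apart left out. Leaving out the 2 DY-coded libraries was chosen after seeing the data.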

Additional observations from a re-analysis of the deposited data

How the results depend on the processing

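The median log2 fold change of the 10 genes was below 0 in all 3 genotype and both age contrasts under all alternatives run. For the interaction it was 0.71, and it was not recomputed there under the alternatives. With each library left out in turn it lay between -2.20 and -1.0 for Tet1KO against WT at 3 months, between -1.77 and -0.65 at 11 months, between -1.75 and -1.13 averaged over the ages, between -2.04 and -0.52 for 11 against 3 months in WT and between -0.82 and -0.11 in Tet1KO. The count of called genes was 0 in all contrasts under all these fits. It was above 0 under DESeq2 alone, at 2 genes at 3 months, 3 at 11 months, 2 averaged over the ages and 7 between the Tet1KO ages, and the cause was not tested. With the replicate block the medians were -1.76 at 3 months, -0.76 at 11 months, -1.26 averaged, -1.39 between the WT ages and -0.63 between the Tet1KO ages, and the block changed no call. Over the alternatives other than leaving 1 library out, the genotype median at 11 months lay between -1.35 and -0.64. Cst12 lay there between -1.34 and -0.15, and Cst9 between -2.33 and -0.69. Defb36 lay between -1.10 and -0.29 and Clu between -1.77 and -0.59, while the other genes moved less. Of the 10 genes, 4 changed sign in an age contrast under some alternative. Between the WT ages, with each library left out, Clu lay between -2.78 and 0.056 and Sox9 between -2.36 and 0.50, and without both libraries that stood apart they were at 0.056 and 0.50. Between the Tet1KO ages, with each library left out, Cldn11 lay between -2.54 and 0.16, Cst12 between -0.70 and 0.30, Clu between -1.22 and 0.21 and Sox9 between -0.85 and 0.31. Without both libraries that stood apart Cldn11 was at 0.17, Cst12 at 0.30 and Clu at 0.21. Cst12 was at 0.078 under limma-voom, and Sox9 at -0.0104 with DESeq2 size factors, -0.0476 with library totals and -0.0038 under DESeq2. Depth limits Sox9, Cldn11 and Rhox5 most, since each had libraries with 3 counts or fewer.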
